A study of Rattus norvegicus with 20 samples.

Results

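The olfactory receptor genes of the rat were followed as a set of genes that mammary tissue is not known to use as a class, to see how probes for such genes read on arrays of mammary cancers and of normal mammary tissue. A probe was a member if it was no control spot and if its RefSeq accession maps to a symbol of the current olfactory receptor names (Or, a family number, letters and a number) or of the older rat names (Olr and a number). The rule gave 1089 receptors of 8963 genes with a symbol on the array, read by 1093 probes of 41012 that were not controls. Of the receptors 1038 have an Or name and 51 an Olr name, and 10835 of all probes have a symbol. The rule uses names and no values, but the set was chosen with earlier results of these data known.

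The study asked how obesity bears on mammary cancers that arise after radiation in female Sprague-Dawley (Jcl:SD) rats. Its 6 groups were cancers of obesity-prone rats (OP cancer, 6 arrays), of obesity-resistant rats (OR cancer, 3) and of lean control rats (LC cancer, 3), and normal mammary tissue of OP (3), OR (2) and LC rats (3). OP and OR rats ate a 45 kcal% fat diet and were told apart by body weight at 7 weeks of age, whereas LC rats ate a 10 kcal% fat diet. Rats of every group, those that gave normal tissue included as far as the design text says, were exposed over the whole body, at 7 weeks of age, to gamma rays of Cs-137 (a dose of 4 Gy, given at 0.5 Gy/min) and were then watched for 30 weeks. The cancers were adenocarcinomas picked for even histology without necrosis or marked infiltration. Each tissue was on 1 array with 1 colour. Not every label ties its tissue to an animal of its own, so the p-values speak to the spread among the 20 tissues alone.

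Olfactory receptors are G protein-coupled receptors of the sensory neurons of the nose and form the largest gene family of mammals. Each neuron settles on a single receptor gene and keeps the others shut, and the receptor signals through the G protein subunit Gnal, the adenylate cyclase Adcy3 and a cyclic nucleotide-gated channel. Their genes lie in clusters, have a coding region without introns, and are divided into the fish-like class I and the class II that is typical of land animals. A few members have been found outside the nose, among them the relatives of Or51e1 in human prostate and of Or10j5 in mouse muscle and sperm.

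To show what the members look like upstream, 3 windows around the annotated gene start are printed from RefSeq's rat table (build GRCr8, all on the plus strand), with the start codon in capitals. Or10am5 and Or2ak6 were read above background on every array, and Or52e3 on none. Their windows are at chr1:76367909-76368208, chr10:43699014-43699313 and chr1:167038365-167038664.
Or10am5: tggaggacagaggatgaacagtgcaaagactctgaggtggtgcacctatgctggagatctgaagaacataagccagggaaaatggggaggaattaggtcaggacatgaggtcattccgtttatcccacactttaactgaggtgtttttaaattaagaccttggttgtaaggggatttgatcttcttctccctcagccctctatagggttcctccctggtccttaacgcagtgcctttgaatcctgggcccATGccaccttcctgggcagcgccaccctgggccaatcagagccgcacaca
Or2ak6: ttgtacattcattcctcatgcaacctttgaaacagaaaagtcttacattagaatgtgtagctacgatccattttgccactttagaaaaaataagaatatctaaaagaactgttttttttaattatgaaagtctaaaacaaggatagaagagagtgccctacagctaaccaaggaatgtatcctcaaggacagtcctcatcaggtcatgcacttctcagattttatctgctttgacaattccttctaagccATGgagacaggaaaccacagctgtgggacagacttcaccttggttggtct
Or52e3: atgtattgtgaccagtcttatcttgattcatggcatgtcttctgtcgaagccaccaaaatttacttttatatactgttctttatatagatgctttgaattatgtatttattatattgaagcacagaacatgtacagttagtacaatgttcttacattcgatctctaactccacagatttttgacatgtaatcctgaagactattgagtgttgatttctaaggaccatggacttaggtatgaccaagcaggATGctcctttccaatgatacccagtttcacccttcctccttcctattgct
RefSeq gives such a window for 921 of the 1089 receptors. In 99.7% of them the annotated start is the start codon itself, against 13% of the 21851 protein-coding windows, so for nearly all receptors the window is placed by the coding region and not by a mapped transcription start. The receptor windows were poor in G and C (median 35.3% against 55.0%) and had a median of 1 CpG, against 11 in all windows. The motif TATAAA (either strand) was in 38.2% of receptor windows and 13% of all windows, and TAATTA, a core that homeodomain factors bind (either strand, which reads the same), in 19.1% and 4.74%. A stretch can hold both motifs, since their letters can overlap. Among the 49 receptors with a window that were above background on all 12 cancers 22.4% had TATAAA, among the 122 that were above it on no array 44.3%, and the median G and C content was 37.0% and 34.8%. In the windows printed, Or2ak6 holds a TAATTA, Or52e3 holds TATAAA in 2 places, and Or10am5 holds neither.

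The tissues carried the markers of their labels. All 9 probes of luminal epithelium, keratins Krt8 and Krt18 among them, were higher in cancers, and all 9 tested probes of fat cells were lower. Adipoq, the fat cell hormone adiponectin, read 70.0, 95.3 and 156 (lowest, median and highest raw brightness) in the 12 cancers and 18350, 27990 and 43950 in the 8 normal tissues. In such bulk samples, fewer cells of a type and less RNA per cell cannot be told apart. Slides 1, 2 and 3 held both tissues (4 cancers and all 8 normal tissues) and were scanned on 1 day, whereas slides 4 and 5 held only cancers and were scanned on another day. The number of arrays limits the precision of every value, and no spot was saturated (0).

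Receptor probes were far less often above background in cancers than in normal tissue. The scanner software marks a spot as well above background when its signal exceeds the background by a set multiple of the background's spread. In cancers 15.0% ± 6.04 (SD, n = 12) of the 1093 receptor probes carried this mark, against 63.8% ± 13 (n = 8) in normal tissue. The shares ran from 8.51% to 26.8% in cancers and from 42.3% to 79.6% in normal tissues, so the tissues did not overlap. The same shares for all other probes were 70.3% ± 6.51 (63.2% to 81.0%) and 94.9% ± 3.02 (89.1% to 98.2%), which did not overlap either. For the 153 negative control spots, which have no rat target, they were 1.47% ± 1.05 and 0.735% ± 0.736. Receptor probes thus stood above the negative controls in both tissues and below the other probes in both.

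By array, the receptor share was 13%, 26.8%, 10.2%, 8.60%, 8.51% and 10.5% in OP cancers 1 to 6. It was 21.1%, 21.5% and 15.7% in the OR cancers and 19.95%, 13.9% and 9.97% in the LC cancers. Among normal tissues it was 51.5%, 78.4% and 60.6% in OP, 62.4% and 79.6% in OR, and 73.4%, 62.6% and 42.3% in LC. OP normal 2, OR normal 2 and LC normal 1 had the highest shares, 1 array of each obesity group, and OP cancer 2 was the highest cancer. Group means were 12.9% ± 6.99 in OP cancers (n = 6), 19.4% ± 3.28 in OR cancers and 14.6% ± 5.03 in LC cancers (n = 3 each). They were 63.5% ± 13.7 in OP normal tissue (n = 3), 71.0% in OR normal tissue (n = 2, mean of the 2 values above) and 59.4% ± 15.8 in LC normal tissue (n = 3). The 3 cancer groups overlapped one another and so did the 3 normal groups. OP cancers 3 to 6 were the only arrays on slide 4, so obesity group and slide cannot be told apart in the OP cancer mean. Within slides 1, 2 and 3 the cancer mean was 46.0, 41.0 and 39.7 percentage points below the normal mean, with 2, 1 and 1 cancers and 2, 3 and 3 normal tissues.

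**Figure D1:**
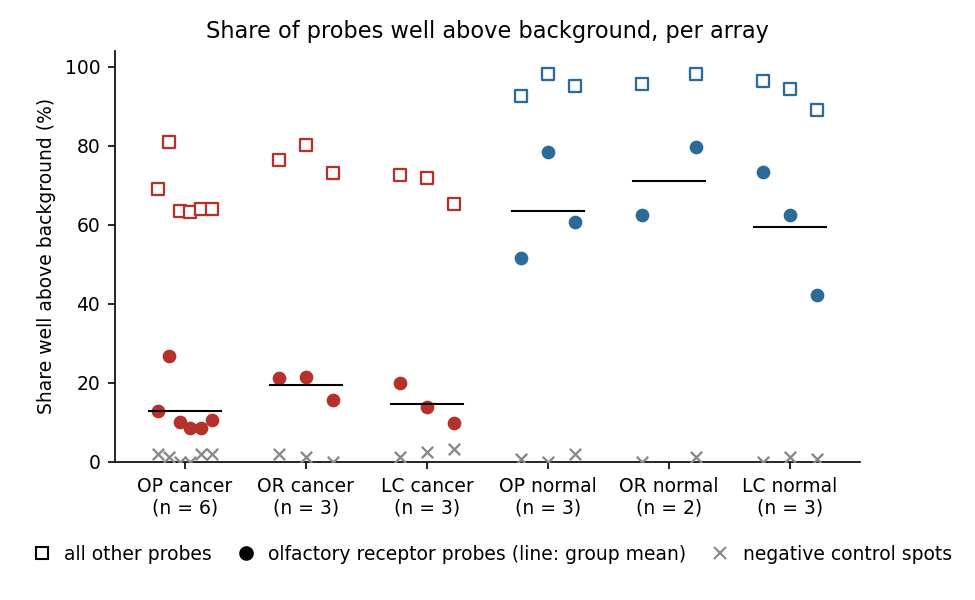
Share of probes marked as well above background (%, vertical axis) on each array, for the 6 groups; filled circles are the 1093 olfactory receptor probes with a line at the group mean, open squares all other probes, crosses the negative control spots. The 12 cancers lie between 8.51% and 26.8% for the receptors and the 8 normal tissues between 42.3% and 79.6%.

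The receptor probes were also dimmer in cancers before any background correction or scaling. The median raw brightness of the receptor probes was 60.8 ± 3.37 scanner units in cancers (55.0 to 65.0, n = 12) and 86 ± 17.1 in normal tissue (68.5 to 111.5, n = 8). Negative control spots read 52.0 ± 2.60 and 56 ± 4.13, and the local background around all spots that were not controls 46.8 ± 2.35 and 45.9 ± 2.31. Over all 20 arrays the negative controls and the local background overlapped between the tissues, whereas the receptor medians did not. Among the arrays of slides 1, 2 and 3, which held both tissues, the negative controls did not overlap either. Their median raw log2 brightness there was 5.57 to 5.67 in the 4 cancers and 5.70 to 6.00 in the 8 normal tissues. On these slides, separation of the tissues was thus not limited to the receptor probes. On the log2 scale the receptor median stood 0.225 ± 0.045 above that of the negative controls in cancers (0.158 to 0.298) and 0.598 ± 0.184 above it in normal tissue (0.384 to 0.858), a difference of -0.37. Within slides 1, 2 and 3 that difference was -0.47, -0.30 and -0.29. Other probes stood 1.27 ± 0.101 above the negative controls in cancers and 1.55 ± 0.285 in normal tissue.

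Probe by probe, 1058 of the 1093 receptor probes had a lower mean raw log2 brightness in cancers and 35 a higher one, with a median difference of -0.43. The share of all probes lower by this measure was not counted, so these counts are not read as a trait of the receptors. Other probes also dimmed: their median raw log2 brightness was 6.97 ± 0.109 in cancers and 7.36 ± 0.381 in normal tissue. For the receptors it was 5.92 ± 0.080 and 6.40 ± 0.278. For 308 receptor probes (28.2%) every cancer read below every normal tissue, where 18.4% of all 41012 probes did so. For 0 receptor probes did every cancer read above every normal tissue, where 12.4% of all probes did so. The processed signal, from which the scanner software has taken the background, showed a larger gap. Its median over receptor probes was 4.85 ± 0.925 scanner units in cancers and 28.3 ± 14.1 in normal tissue, or 2.25 ± 0.298 and 4.67 ± 0.721 on the log2 scale. That is a difference of -2.41, against -0.37 in the raw brightness over the negative controls, and within slides 1, 2 and 3 it was -3.18, -2.16 and -2.19. The processed negative controls read 1.91 ± 0.341 and 1.77 ± 0.279 on the log2 scale.

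**Figure D2:**
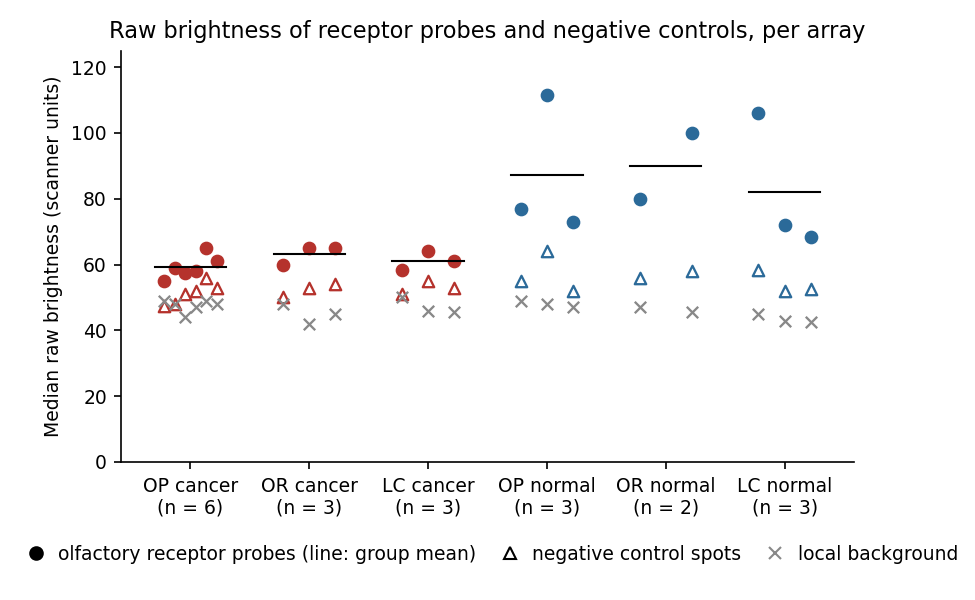
Median raw brightness per array (scanner units, vertical axis, from 0) of the receptor probes (filled circles, line at the group mean), the negative control spots (open triangles) and the local background (crosses), for the 6 groups. Receptor medians lie between 55.0 and 65.0 in cancers and between 68.5 and 111.5 in normal tissues, above the negative controls of the same array in both.

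The commonest pattern among the receptors was a mark on some normal tissue and on no cancer, seen for 485 probes (44.4%, against 11.1% of all other probes), 102 of them on all 8 normal tissues. In all, no cancer array marked 632 probes (57.8%, against 12.0%). No normal tissue marked 174 probes, 147 probes (13.5%, against 0.899% of other probes) were marked on no array at all, and 27 were marked on some cancer and on no normal tissue. At the other end, all 8 normal tissues marked 408 receptor probes (37.3%, against 87.2%) and all 12 cancers 57 (5.22%, against 55.99%). Each of these 57 was also marked on all 8 normal tissues. Between the ends lay 404 probes, marked on 1 to 11 cancers, of which 154 were marked on 1 cancer only. A pair of members was left out of the tests because a spot had an outlier mark on some array: Or13a27e, above background on all 12 cancers and 8 normal tissues, and Or10al7, on 3 and 8. That left 1091 probes, of which 878 would pass a filter that asks for the mark on at least 0.5 of the arrays of some group.

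**Figure D3:**
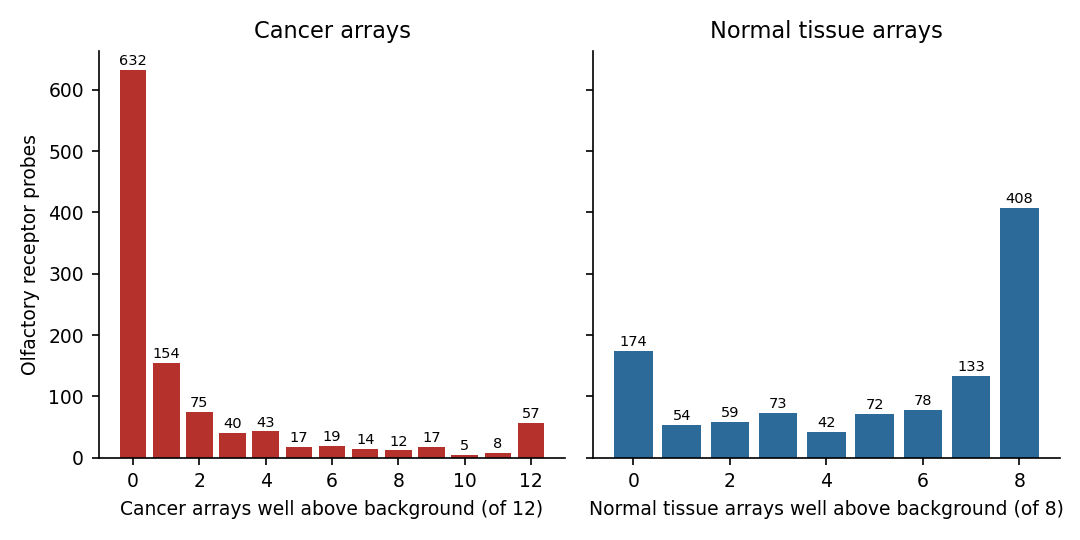
Number of receptor probes (vertical axis) by the number of cancer arrays (left, 0 to 12) and normal tissue arrays (right, 0 to 8) on which they were well above background. In cancers 632 of the 1093 probes sit at 0 arrays and 57 at 12, and in normal tissues 174 sit at 0 and 408 at 8.

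Several of the 57 receptors above background on every array were lower in cancers by a wide margin. Or10am5, a class II receptor, read 1862, 2557 and 4814 (lowest, median and highest raw brightness) in cancers and 3457, 4574 and 5298 in normal tissues. OP cancer 3 alone reached into the normal range, and after normalization the tissues did not overlap. The fitted log2 difference was -1.66 (SE 0.161, limma adjusted p = 3.63e-07). Its genome neighbours in RefSeq are Zim1, a zinc finger gene, and Or6z1, which was also above background on all arrays. Or6z1 read 360, 465 and 598 in cancers and 329, 384 and 432 in normal tissues. Its raw brightness was therefore mostly higher in cancers, while the normalized difference was -0.32 (limma adjusted p = 0.00168).

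Or2ak6, of class II, read 899, 1458 and 1886 in cancers and 1728, 2020 and 4355 in normal tissues, with LC normal 2 far above the other normal tissues. Its normalized difference was -1.58 (SE 0.127, limma adjusted p = 5.06e-08). Or4f7c read 637, 816 and 1008 in cancers and 977, 1195 and 1354 in normal tissues, and fell by 1.39 on the log2 scale (SE 0.100, limma adjusted p = 1.83e-08). These ranges touched only through OR cancer 1, OP cancer 2 and LC normal 3 for Or4f7c. Or5aq1d read 352.5, 527.5 and 750 in cancers and 508.5, 634.5 and 964 in normal tissues, and fell by 1.08 (limma adjusted p = 3.46e-06). Without scaling between arrays its difference in the processed signal was -0.24 and did not pass (limma adjusted p = 0.267).

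For others of the 10 receptors named as above background on all cancers with the highest normalized level, raw and normalized values pointed different ways. Or2t48e read 861, 1245 and 1520 in cancers and 831, 887 and 1064 in normal tissues, higher in most cancers, yet its normalized difference was -0.44 (limma adjusted p = 2.60e-04). At the 75th percentile of the processed signal, and of the background-corrected signal, it did not pass (-0.30 and -0.19, limma adjusted p = 0.0542 and 0.159). Or2t47d (353, 454.5 and 650 against 309.5, 385 and 446 in normal tissues) and Or6al2 (310.5, 388 and 423 against 284, 337.5 and 487) had normalized differences of -0.36 and -0.42 (limma adjusted p = 0.0126 and 1.14e-04). In the processed signal without any scaling between arrays, Or2t48e, Or6z1, Or2t47d and Or6al2 stood at 0.45, 0.41, 0.11 and 0.14. Quantile normalization gives every array the same distribution, so its differences are relative to the other probes of the array. Or5b123b read 190, 314 and 795 in cancers and 215, 330 and 535 in normal tissues, a range too wide to separate the tissues by eye, and its normalized difference was -0.67 (limma adjusted p = 0.00277), or -0.19 in the unscaled processed signal (limma adjusted p = 0.546). With slide as a block Or5b123b, Or2t47d and Or6z1 stood at -0.22, -0.30 and -0.29 and did not pass (limma adjusted p = 0.264, 0.167 and 0.0519). Blocking on the day of the scan left Or5b123b at -0.32 and Or2t47d at -0.38, short of the threshold as well (limma adjusted p = 0.166 and 0.0516). Or8w1b read 213, 302 and 672 in cancers and 232, 323 and 449 in normal tissues, and its difference of -0.42 did not pass (SE 0.231, limma adjusted p = 0.125). It passed without LC normal 1 (-0.62, limma adjusted p = 0.00478) and at the 75th percentile of the processed signal and of the background-corrected signal (-0.87 and -0.69, limma adjusted p = 0.00398 and 0.0028), as it did in a fit of the authors' deposited table (-0.87, limma adjusted p = 0.00401).

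A trio of further receptors, Or10a3, Or2f2 and Or2h1, moved together across the arrays. Or10a3 read 72.0, 93.8 and 139.5 in cancers and 171, 264 and 546 in normal tissues. Or2f2 read 77.5, 99 and 152 in cancers and 172.5, 259.5 and 551.5 in normal tissues, and Or2h1 81.0, 97.5 and 151 in cancers and 168, 260.5 and 577 in normal tissues. For all 3, LC cancer 1 was the lowest cancer, OR cancer 2 the highest cancer, LC normal 3 the lowest normal tissue and OP normal 2 the highest, and no cancer overlapped a normal tissue. Most of this order was not particular to the 3. The raw median over all receptor probes was also lowest among normal tissues in LC normal 3 (68.5) and highest in OP normal 2 (111.5). OR cancer 2 shared its highest cancer value (65.0) with other cancers, and OP cancer 1 (55.0) was its lowest cancer. Or10a3, Or2f2 and Or2h1 fell by 1.62, 1.59 and 1.55 on the quantile log2 scale (limma adjusted p = 4.00e-06, 3.17e-06 and 5.43e-06). The same probes stood at -3.39, -3.31 and -3.20 under the 75th percentile scaling of the processed signal and at -2.64, -2.57 and -2.46 with no scaling. On the quantile scale these, Or10am5 and Or2ak6 were the 5 largest falls among the receptors called, whereas Or10am5 and Or2ak6 stood at only -1.57 and -1.46 under the 75th percentile scaling. Or10a3 was well above background on 9 of 12 cancers, Or2f2 on 10 and Or2h1 on 11, and all 3 on all 8 normal tissues.

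The largest rise among the receptors called on the quantile scale was that of Or9i1b. Or9i1b read 86, 202 and 286 in cancers and 85.0, 110 and 163 in normal tissues, with OP cancer 1 the lowest cancer and LC cancer 3 the highest. It rose by 1.02 (SE 0.112, limma adjusted p = 1.25e-06), which the 75th percentile scaling of the processed signal gave as 0.45 (limma adjusted p = 0.135, with 5.51e-08 to 0.434 over all settings). By obesity group its difference was 0.71 (OP), 1.16 (OR) and 1.20 (LC). The 6 OP cancers read 86, 120, 152, 98.5, 160 and 250.5, the OR cancers 194, 216 and 220.5 and the LC cancers 210, 231 and 286, so that 5 of the 6 OP cancers lay below the others. OP minus OR and LC cancers was -0.51 (limma adjusted p = 0.259), and without OP cancer 6 it was -0.64 (limma adjusted p = 0.0216), in a fit that called 1.45% of all probes. OP cancer 6 was the brightest OP cancer for this probe, and leaving out any other array gave no call. OP cancers 3 to 6 were alone on slide 4, so obesity group and slide cannot be told apart in this contrast. The next largest rises on the quantile scale were Or2d36b (0.64), Olr193 (0.58), Or8c10b (0.57) and Or13a27c (0.57), each called by limma. Under the 75th percentile scaling these 4 turned to -0.29, -0.52, -0.16 and -0.61.

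At the dark end stood the 5 receptors with the lowest normalized level among the 147 never above background. Or52e3 read 42.0, 45.5 and 49.0 in cancers and 42.0, 46.0 and 50.5 in normal tissues, the same range in both and at the level of the local background. Or7d10 read 43.0, 47.0 and 49.5 in cancers and 48.0, 57.0 and 70.0 in normal tissues. Or5p78 (medians 48.0 and 51.5), Olr1500 (47.8 and 53.5) and Or5p78c (47.3 and 53.0) also read a little higher in normal tissues, within spots that carried no mark, so no fold is given for any of the 5.

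**Figure D4:**
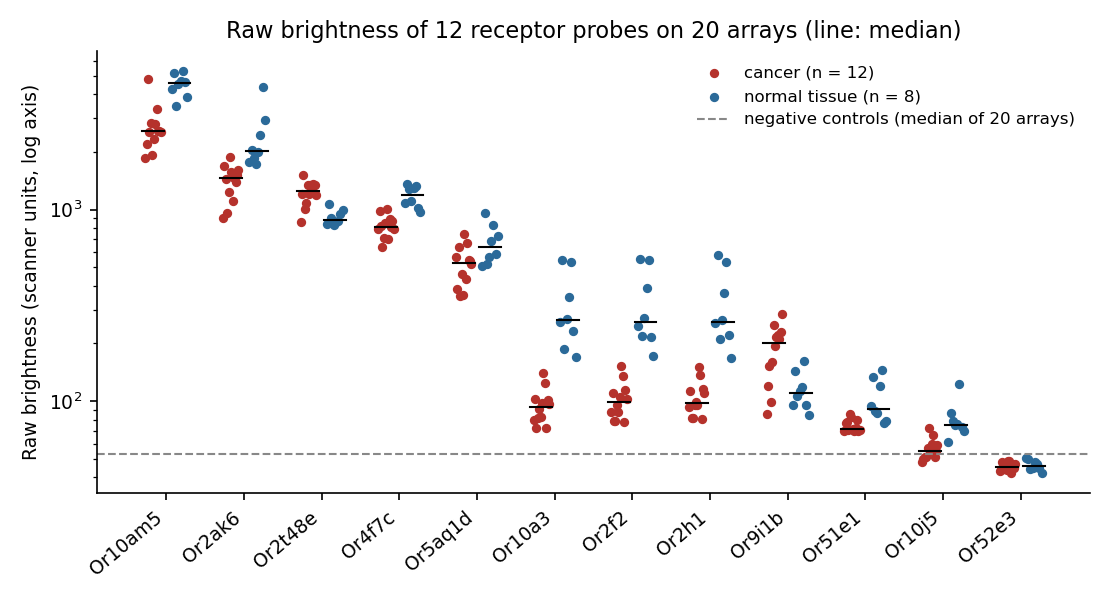
Raw brightness (scanner units, log axis) of 12 receptor probes on the 20 arrays, cancers (12, red) left of normal tissues (8, blue) for each probe, with lines at the medians and a dashed line at the median of the negative controls. Or10a3, Or2f2 and Or2h1 do not overlap between the tissues, Or9i1b has a median of 202 in cancers and 110 in normal tissues, and Or52e3 lies below the negative controls in both.

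The limma test was run over all 40662 probes without an outlier mark, after background correction and quantile normalization. Between cancers and normal tissues 448 of 1091 receptor probes (41.1%) passed an adjusted p of 0.05, against 62.3% of all probes. Of these 208 (19.1%) were higher in cancers, against 30.3% of all probes, and 240 (22%) lower, against 32%. The receptor share was below the background in both directions. The median difference over all receptor probes was 0.01 (quartiles -0.12 and 0.12), against -0.01 over all probes. The median size of the receptor probes called was 0.24, and the median SE was 0.0562. Of the 448, 16 were at least 2-fold, 1 higher and 15 lower. Sizes and 2-fold counts were not summarized over all probes called. These figures therefore describe the receptors alone, and neither the sizes nor the split is read as a trait of theirs. The range was -1.66 for Or10am5 to 1.02 for Or9i1b. With slide as a block 392 receptor probes were called (against 53.5% of all probes) and with scan day as a block 394 (against 54.2%), and the median receptor difference within slides 1, 2 and 3 was -0.01, -0.01 and -0.01. After normalization 29 probes (2.66%) had every cancer above every normal tissue, against 9.08% of all probes, and 72 (6.60%) every cancer below, against 10.9%.

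The receptors were split by whether cancers marked them. Of the 56 tested probes marked on all 12 cancers, 44 were called (78.6%, against 62.3% of all probes). Of these, 31 were higher and 13 lower in cancers (against 30.3% and 32% of all probes). Their median was 0.28 on the quantile scale and -0.93 under the 75th percentile scaling of the processed signal, the opposite direction. Of the 448 receptor probes called, 193 were among the 632 marked on no cancer (30.5% of the 632, against 62.3% of all probes). Levels of the 632 in cancers are only bounds, so no difference is given for them. Since the mark was read from the same cancers, these counts describe the subsets and are not tested.

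The direction of the family as a whole depended on the scaling. When the processed signal of each array was instead set to its 75th percentile, 1066 of 1091 receptor probes (97.7%) were called lower in cancers, against 66.2% of all probes, and 0 higher, against 14.7% (80.9% of all probes in either direction; limma, 0 higher also at an unadjusted p under 0.05). The median receptor difference was then -2.60 and that of all probes -1.41. The 75th percentile of the processed signal itself was 8.92 ± 0.178 on the log2 scale in cancers and 8.17 ± 0.265 in normal tissue. Setting the background-corrected signal of the first fit to its 75th percentile gave 1081 lower (66.8% of all probes) and 0 higher (14.7%, and 0 at an unadjusted p under 0.05), with medians of -0.83 for receptors and -0.75 for all probes. The processed signal without scaling gave 895 lower (50.5% of all probes) and 6 higher (28.8%; medians -1.85 and -0.66). Quantile normalization of the processed signal gave 281 lower (33.4%) and 398 higher (32.9%; medians 0.17 and -0.002). Relative to the median of all probes, the receptors stood at -1.19 in the processed signal, both unscaled and at its 75th percentile, at -0.08 at the 75th percentile of the background-corrected signal, and at 0.02 and 0.18 under the quantile scalings.

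The authors' deposited table holds 40 of the 1093 receptor probes (3.66%), against 52.0% of all other probes, and all 40 were above background on all 20 arrays. Its values could be rebuilt from the scanner files as log2 processed signals set to the 75th percentile of the array, with every probe then centred on its own median, to within a median of 0.00130 on the array that deviated most. Over these 40, limma called 37 lower in cancers (92.5%, against 41.3% of the table, or 68.4% in either direction) and 0 higher (against 27%, and 0 also at an unadjusted p under 0.05), with a median of -1.0 for the receptors and -0.19 for the table. In that table Or10am5 differed by -1.57, Or2ak6 by -1.46 and Or4f7c by -1.16, near the values on the quantile scale, whereas Olr193 differed by -0.51 where the quantile scale gave 0.58.

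**Figure D5:**
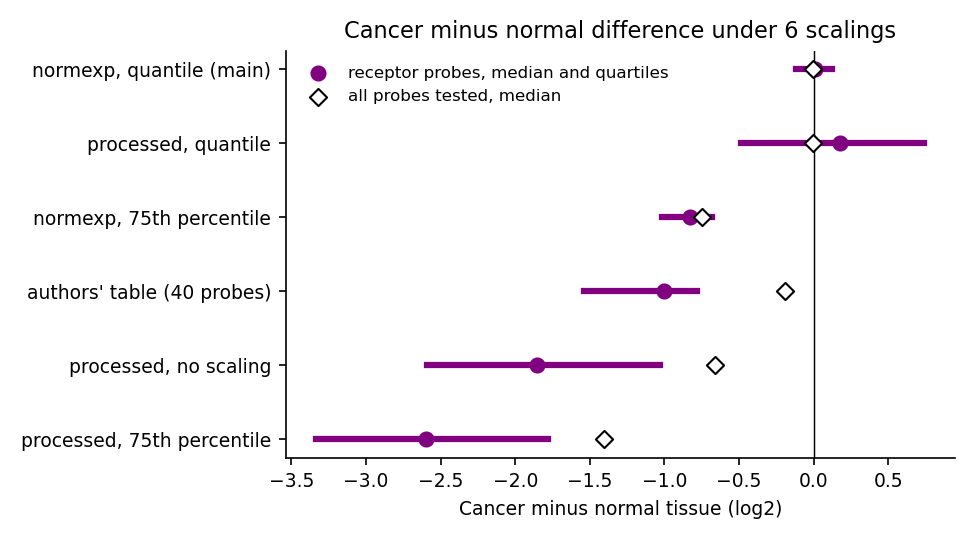
Cancer minus normal log2 difference (horizontal axis) of the receptor probes under 6 scalings (rows), as the median with a bar over the quartiles, and the median of all probes tested (open diamonds). The receptor median is 0.01 after quantile normalization of the background-corrected signal and -2.60 when the processed signal is set to its 75th percentile.

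Within each obesity group, cancers were set against normal tissue of the same diet. In OP rats 333 receptor probes (30.5%, against 44.4% of all probes) were called, 168 higher (against 22% of all probes) and 165 lower (against 22.4%). In OR rats 88 were called (8.07%, against 29%), 32 higher (against 15%) and 56 lower (against 14%). In LC rats 227 were called (20.8%, against 43.3%), 84 higher (against 20.9%) and 143 lower (against 22.4%). Leaving out 1 array could move these counts: without OP normal 2 the OP count was 192 (against 30.2% of all probes), without OR cancer 1, OR normal 1 or OR normal 2 the OR count was 43, 48 or 11 (against 21.7%, 18.1% or 10.66%), and without LC normal 1 the LC count was 133 (against 35.4%). Leaving out an OR normal tissue leaves 1, which is then assumed to vary like the other groups. The difference between the groups was tested as the interaction of tissue and obesity, OP against the mean of OR and LC. By limma 0 receptor probes were called, as were 0 of all 40662, while at an unadjusted p under 0.05 there were 20 positive and 7 negative. Between OP cancers and the OR and LC cancers 0 were called, as were 0 of all probes, with 36 higher and 27 lower at an unadjusted p under 0.05. Between OP normal tissue and that of OR and LC 0 were called, as were 0 of all probes, with 3 higher and 2 lower. These unadjusted counts are out of 1091 receptor probes and were not made for all probes. Where nothing differs, a share of about 0.05 would pass, so the counts are not read as a difference. With slide as a block, 3 receptors were called among cancers (against 0.133% of all probes): Or2v1, Or8k16b and Or52a20, named after their values were seen and each above background on 1 of 12 cancers. Only slide 1 held an OP cancer beside another cancer, OP cancer 1 with LC cancer 1. The OP contrast in that fit therefore rests on this pair, with OR set against LC through slide 5, and no difference is given.

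The 2 receptors with known roles outside the nose that could be looked up lay close to background. Or51e1 read 70.0, 71.8 and 85.5 in cancers and 77.0, 91.3 and 145 in normal tissues, and was well above background on 2 of 12 cancers and all 8 normal tissues. It was 0.16 higher on the quantile scale (limma adjusted p = 0.0195) and -2.01 under the 75th percentile scaling. With the replicate number as a block Or51e1 stood at 0.14 and did not pass (limma adjusted p = 0.0511), and without OR normal 1 it stood at 0.14. Or10j5 read 48.0, 55.0 and 72.5 in cancers, where it was never well above background, and 61.0, 75.5 and 122.5 in normal tissues, where it was on 5 of 8 arrays. Its test gave a limma adjusted p of 0.416 on the quantile scale and of 3.11e-07, lower in cancers, under the 75th percentile scaling, and no fold is given because the cancers hold only a bound.

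The partners of the receptors in the olfactory neuron were read from 16 probes for 11 of the 22 genes listed. On average 67.2% of these probes were above background in cancers and 93.0% in normal tissue, and 4 probes were called higher and 7 lower in cancers (against 30.3% and 32% of all probes; median -0.08). Under the 75th percentile scaling 3 were higher and 10 lower (median -1.82). Of the genes that define the mature neuron, Omp, the olfactory marker protein, read 65.0, 75 and 91.0 in cancers and 114, 152 and 245 in normal tissues, and fell by 0.46 on the log2 scale (limma adjusted p = 2.63e-04). The channel subunit Cnga4 was above background on 1 of 12 cancers and all 8 normal tissues, and read 56, 64.3 and 71.0 in cancers and 82.0, 100.5 and 162.5 in normal tissues (limma adjusted p = 0.0215). Cnga2, the main subunit, was above it on 0 of 20 arrays, with medians of 50.0 in cancers and 55.5 in normal tissues. Cngb1, the modulatory subunit, was above background on no cancer and on 7 of 8 normal tissues (medians 52.3 and 84.5, limma adjusted p = 0.00650).

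Other partners are also used outside the nose. Ebf1, a transcription factor of olfactory neurons that also acts in fat cells and B cells, read 129.5, 282 and 621 in cancers and 770, 1920 and 3185 in normal tissues, and fell by 3.27 (limma adjusted p = 6.47e-08). The phosphodiesterase Pde1c fell in both its probes (-1.01 and -0.30) and the receptor kinase Grk3 by 0.68. Ric8b, an exchange factor for Gnal, was 0.22 higher on the quantile scale and -2.07 under the 75th percentile scaling. The 5 probes of the G protein subunit Gnb1 did not agree, with 3 called higher (0.83, 1.08 and 0.44) and 2 not called (-0.16 and 0.08). Adcy3, the cyclase, and Pde4a, a phosphodiesterase, did not pass (-0.01 and 0.07, limma adjusted p = 0.958 and 0.706).

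Probes of other sensory receptor families, and of genes listed for retina and testis germ cells, were also marked more often in normal tissue. The share above background was 22% in cancers and 80.4% in normal tissue for 14 vomeronasal receptor probes, 14.4% and 66.7% for 15 trace amine receptor probes, and 9.03% and 69.8% for 12 taste receptor probes. It was 28.1% and 90.6% for 8 retina probes and 33.9% and 97.7% for 16 probes of testis germ cells. Lower and higher calls in cancers were 8 and 2 for vomeronasal, 4 and 3 for trace amine, 6 and 1 for taste, 6 and 1 for retina and 11 and 2 for testis probes, where 32% of all probes were called lower and 30.3% higher. Their medians were -0.16, -0.03, -0.09, -0.29 and -0.17 on the quantile scale and -3.37, -2.94, -3.52, -3.23 and -3.29 under the 75th percentile scaling. Tas1r3, a subunit of the sweet and umami receptors, read 65.0, 85.5 and 136 in cancers and 152.5, 246.5 and 491 in normal tissues (-1.61). Odf1, a protein of the sperm tail, read 77.0, 105 and 151 in cancers and 174, 288.5 and 565.5 in normal tissues (-1.64). For both, no cancer overlapped a normal tissue. Rises on the quantile scale were seen for Vom2r40 (0.67), Taar8c (0.57) and Prm1, a sperm chromatin protein (0.43), and these were -0.16, -0.46 and -0.91 under the 75th percentile scaling.

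Ribosomal protein genes, which every cell uses, were read throughout. All 88 ribosomal protein probes were above background on every array (100% in both tissues), 23 were called higher and 27 lower (against 30.3% and 32% of all probes), and the median was -0.02 on the quantile scale and -0.32 under the 75th percentile scaling. The lists of cell types moved with tissue as follows: the 9 luminal probes had a median of 2.03, and the 9 fat cell probes a median of -5.50. Among T and NK cell probes 1 of 8 was higher and 1 lower, among nerve and Schwann cell probes 1 of 10 higher and 4 lower, and among skeletal muscle probes 0 of 8 higher and 1 lower, against the same shares of all probes. The mean log2 level over the list ran from 7.31 to 7.90 in cancers and 12.5 to 13.6 in normal tissue for fat cells, and from 13.6 to 14.6 and 10.4 to 12.8 for luminal epithelium. The part of these cell types in the receptor readings was not tested.

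Shares by receptor class lay close together, while families varied more. Class I receptors (114 probes) were above background at 14% ± 8.72 in cancers and 65.5% ± 13.5 in normal tissue, class II (927 probes) at 15.1% ± 5.78 and 63.5% ± 12.9, and those with Olr names (52 probes) at 15.4% ± 6.40 and 66.6% ± 14.6. Among families with at least 40 probes, family 2 (107 probes) was marked most often, at 25.3% in cancers and 76.2% in normal tissue, and held 12 of the 57 receptors above background on every array. Family 51 (40 probes) was marked least often in cancers, at 5.63% against 58.1% in normal tissue, and held 0 of the 57. Family 8 (118 probes) was at 9.82% and 62.8%, family 5 (146 probes) at 12.2% and 58.9%, and family 4 (142 probes) at 12.4% and 56.5%. Members of a family share sequence and can share labelled RNA, so they are not independent readings.

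Position along the chromosome was looked up in RefSeq's gene order. A gene that is no olfactory receptor lay next to 17.7% of all receptor probes' genes, to 16 of the 57 (28.1%) above background on every array, and to 15.7% of the 147 above it on none. Of the 57, 8 (14%) lay next to another of the 57, and 78 of all 1089 receptors (7.16%) lay next to one of them. Close copies, with the same symbol stem, were as frequent among the 57 (49.1%) as among the 147 (45.6%) and all receptors (43.6%). These shares are descriptions, with no test.

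Receptor probes kept part of their order from array to array. Across the 1093 probes, the raw log2 brightness of 2 cancers correlated at a median Pearson r of 0.889 (0.827 to 0.949, 66 pairs). A cancer and a normal tissue correlated at 0.786 (0.568 to 0.906, 96 pairs) and 2 normal tissues at 0.933 (0.838 to 0.965, 28 pairs). Among the 632 probes above background on no cancer the medians were 0.630, 0.522 and 0.843. The points of such a correlation are probes, which share base composition and spot position between arrays and are not replicates.

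In all, 4 receptors had a pair of probes, and their marks did not always match. For Or5b123 1 probe was above background on 2 of 12 cancers and 7 of 8 normal tissues and the other on 0 and 3. The first read 63.0, 69.5 and 74.0 in cancers and 71.0, 81.5 and 107.5 in normal tissues, and the second 44.0, 50.0 and 55.5 in cancers and 57.0, 65.5 and 87.0 in normal tissues. The probes of Olr1271 were marked on 1 cancer each and on 0 and 2 normal tissues, those of Or52l1 on 1 and 0 cancers and on 5 and 0 normal tissues, and those of Or6c69d on no cancer and on 5 and 3 normal tissues. With so few marks in cancers, no difference is given for these pairs.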

How the data were processed

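Per the labels' protocols, total RNA was amplified, labelled with Cy3 and put on Agilent's Whole Rat Genome arrays in 1 colour. Per the file headers, the scanner files hold spot and local background brightness as intensity, made with Feature Extraction 9.5.1.1 on an array design of build rn4, with marks of 0 or 1 per spot (other); version 10.7.3.1 is given per the submitters' processing notes. The authors' deposited table holds log2 values; their scaling and centring were found by setting it against the scanner values. Probes were named through RefSeq accessions.

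The median spot signal was corrected with normexp (offset 50) on the median local background and quantile-normalized. All 40662 probes without an outlier mark (350 had one) were fitted with limma 3.58.1 in R 4.3.3, with 6 group means over 20 arrays, with the Benjamini-Hochberg adjustment over all probes. For cancer minus normal, the average of the 3 normal groups was taken from that of the 3 cancer groups. Adjusted p-values are limma's throughout. Raw shares and medians were described with no test. Tables and figures were made in Python 3.11.15 with pandas 2.3.3 and matplotlib 3.10.9. The fit was tested on simulated data with known changes.

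Receptors were named by rule: up to 10 above background on the most cancer arrays, the 5 largest rises and falls called, the 5 above it on the fewest arrays, and those known outside the nose, plus, per other list, members with the smallest p-values. The members and lists were chosen with earlier results of these data known. Alternatives changed the background correction, scaling, source of values, filter on dim probes, probes per gene, blocks, variance model and samples used.

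The labels do not say that a replicate number marks a shared animal or batch, though the numbers partly follow the slide (replicate 1 of the OP and LC groups was on slide 1). The residuals of same-numbered samples correlated at a median of -0.0489 (-0.341 to 0.286, 40 pairs). Those of samples with other numbers correlated at a median of 0.0342 (-0.495 to 0.577, 122 pairs). With no label for it and no higher median for the same number, the numbers were not taken to pair the samples.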

Additional observations from a re-analysis of the deposited data

Results flagged for a closer look

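Among the 6 OP cancers, 28 readings were examined for a sample that stands apart from the rest by its gap to the nearest other sample. In 5 of them a sample did. Chance gives about 1 in 20 where readings are independent. These readings share the same 6 arrays, so the 5 are not weighed against that rate. OP cancer 1 was on slide 1, OP cancer 2 on slide 2 and OP cancers 3 to 6 on slide 4. OP cancer 2 had 26.8% of the receptor probes well above background, and Or5b123b read 795 on the same array. OP cancer 3 read 4814 for Or10am5 and 672 for Or8w1b. OP cancer 6 read 72.5 for Or10j5, a receptor that no cancer array marked as well above background.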

How the results depend on the processing

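The count of receptor probes called between cancers and normal tissues (448) was 1066 with the processed signal at its 75th percentile, 1081 with the same after normexp, 901 for the unscaled processed signal, 679 for the quantile-normalized processed signal and 37 of 40 in the authors' table, and stayed within 1.5 times under the other settings (355 to 472 over samples left out). The shares of all probes called in these 5 fits were 80.9%, 81.5%, 79.3%, 66.3% and 68.4%, against 62.3%. In the same order, the OP count was 962, 1008, 768, 575 and 30 (68.4%, 70.8%, 66.5%, 49.4% and 48.1% of all probes), the OR count 976, 942, 710, 217 and 30 (64.2%, 66%, 52.7%, 32.5% and 42.5%), and the LC count 1009, 401, 688, 444 and 31 (69.5%, 52.1%, 62.4%, 48% and 51.1%). The median difference was -2.60, -0.83, -1.85, 0.17 and -1.0. With slide as a block the OP count was 203 (34.2% of all probes), and 3 were called between OP and other cancers (0.133%). Leaving out 1 sample gave 192 to 344 in OP (30.2% to 48.2% of all probes), 11 to 119 in OR (10.66% to 34.7%), 133 to 238 in LC (34.4% to 45%) and 0 to 1 between OP and other cancers (Or9i1b, without OP cancer 6, where 1.45% of all probes were called). The processed receptor signal differed by -3.16 against the 75th percentile, -1.65 against the array median and -3.18 within slide 1. The raw gap over negative controls, after subtracting local background, was 8.88 ± 1.90 scanner units in cancers and 30.4 ± 13.4 in normal tissue, on another scale than the log2 values. The limma trend was added after seeing the data (510 called, and 63.1% of all probes). The cause of these changes was not tested.

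Replicate numbers were also used as a block, although the labels do not say that they pair the samples: with this replicate block 214 receptor probes were called in OP (32.4% of all probes), 41 in OR (20.1%) and 410 between cancers and normal tissues (58.4%).

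For 19 named receptors over 581 comparisons with another setting, 545 kept direction and side of the threshold, 16 lost the call, 4 gained one and 16 changed sign. In the unscaled processed signal Or2t48e stood at 0.45, Or6z1 at 0.41, Or2t47d at 0.11, Or6al2 at 0.14 and Or51e1 at -1.27. At the 75th percentile of the processed signal and after normexp, Or2d36b stood at -0.29 and -0.31, Olr193 at -0.52 and -0.39 (-0.51 in the authors' table), Or8c10b at -0.16 and -0.35, Or13a27c at -0.61 and -0.39, and Or51e1 at -2.01 and -0.86.

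Readings near background limit all of this: 632 receptor probes were above it on no cancer, so their levels in cancers are only bounds.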
